A study of Rattus norvegicus with 4 samples.

Results

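Of the genes on a rat cDNA array, 6 regulators of NF-kappa-B signalling and early growth response were examined in liver after ligation of the common bile duct. They are Nfkb2, Nfkbia, Myc, Egr1, Ifrd1 and Pim3. They were found by symbol in the platform's probe table, which gave 8 of the 1936 probes and 6 of the 958 named genes. Nfkb2 and Myc had 2 probes each and the other genes had 1. All 6 passed into the fit, since no filter on low values was used. The genes had been selected on these same ligation-over-sham ratios, so their values are given as a description and without a test.

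The ligated livers came from male Sprague-Dawley rats killed 12 h after the common bile duct was tied between the liver hilus and the gut, and the sham livers came from rats whose duct was only exposed. All animals had a laparotomy under ether, and the right lateral lobe was taken. Within each group the total RNA of 3 rats was combined, so the labels describe 1 pool per group and the spread between rats cannot be seen. Each of the 4 two-colour arrays compared the ligated pool with the sham pool, with the ligated pool in Cy5 on arrays 1 and 3 and in Cy3 on arrays 2 and 4. Nothing in the labels says that the arrays used separate pools, so errors and p-values cover the variation of hybridisation and may hold none between animals.

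Values are log ratios relative to the median of each array, and a positive value means more signal from the ligated pool. That direction is likely, since the labels put ligation in channel 2 throughout, but it is not stated, and the 4 pairs of arrays of opposite dye orientation correlated at r = -0.45 to -0.28 across the 1936 probes. The mean of each regulator, and of each listed gene called below, is therefore also given with the table read as Cy5 over Cy3. The logarithm was taken as base 2, which is not stated either. The median deposited values were -1.26, 0.43, -0.96 and 0.26 on arrays 1 to 4, and without centring the mean of every gene was shifted by -0.38. The files hold ratios and no signal levels, so neither the liver label nor the strength of any probe could be checked against marker genes. In pooled bulk tissue, fewer cells of a type and less RNA per cell cannot be told apart.

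NF-kappa-B is a family of dimeric transcription factors that inhibitor proteins, such as the product of Nfkbia, hold in the cytoplasm until a signal triggers their breakdown. Both Nfkb2, which encodes a precursor of an NF-kappa-B subunit, and Nfkbia are themselves textbook targets of the factor. Myc, Egr1 and Nfkbia are known as early response genes of the regenerating liver, and in mice Egr1 is known as a mediator of hepatic inflammation after bile duct ligation.

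The sequences upstream of 3 of these genes are shown because they hold letter matches to the kappa-B consensus or the CArG box, both described below. RefSeq promoter windows (build GRCr8, the 250 bases before the annotated start, 5′ to 3′ on the gene's strand) were found for 5 of the 6 genes, namely Nfkb2, Nfkbia, Egr1, Ifrd1 and Pim3. Capitals mark matches on either strand to the degenerate kappa-B consensus (GGGRNNYYCC), an Egr motif (GCGNGGGCG), an AP-1 motif (TGANTCA) or the CArG box (CCWWWWWWGG). The first is the consensus of NF-kappa-B, and serum response factor binds the last. In these letters R is A or G, Y is C or T, W is A or T, and N is any base. The E-box (CACGTG) and the cyclic AMP element (TGACGTCA) were also searched.
Nfkb2 (chr1:255108124-255108373, + strand): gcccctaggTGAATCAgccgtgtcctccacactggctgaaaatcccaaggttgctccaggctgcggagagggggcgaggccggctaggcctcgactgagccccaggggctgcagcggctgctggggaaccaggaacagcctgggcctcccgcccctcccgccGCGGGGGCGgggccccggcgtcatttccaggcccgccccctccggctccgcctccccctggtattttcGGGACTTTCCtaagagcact
Nfkbia (chr6:78597073-78597322, - strand): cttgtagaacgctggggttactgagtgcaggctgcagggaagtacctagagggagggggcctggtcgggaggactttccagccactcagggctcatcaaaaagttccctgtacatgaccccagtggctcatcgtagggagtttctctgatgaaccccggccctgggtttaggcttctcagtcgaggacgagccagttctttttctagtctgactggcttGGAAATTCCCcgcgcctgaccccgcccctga
Egr1 (chr18:26736828-26737077, + strand): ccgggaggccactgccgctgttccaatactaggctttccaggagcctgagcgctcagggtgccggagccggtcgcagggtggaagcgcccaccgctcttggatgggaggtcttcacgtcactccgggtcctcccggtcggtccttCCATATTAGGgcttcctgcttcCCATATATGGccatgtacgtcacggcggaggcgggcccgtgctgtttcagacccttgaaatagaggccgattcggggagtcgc

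Nfkb2 held a kappa-B match 20 to 11 bases before its start, an Egr match at 88 to 80 bases and an AP-1 match at 241 to 235 bases. Nfkbia held a kappa-B match at 31 to 22 bases, and Egr1 held 2 CArG matches at 105 to 96 and 83 to 74 bases. Ifrd1 held an Egr match at 148 to 140 bases, and none of the 6 motifs was found in the window of Pim3. No matches overlapped. Among 33469 promoter windows of the same length, the kappa-B consensus was found in 6.33%, the CArG box in 1.50%, the Egr motif in 4.29%, the AP-1 motif in 6.34%, the E-box in 5.59% and the cyclic AMP element in 1.59%. The motifs were chosen with the sequences in view, the kappa-B consensus in place of a narrower form tried first, and a match is a string of letters, not a measured site.

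**Figure D1:**
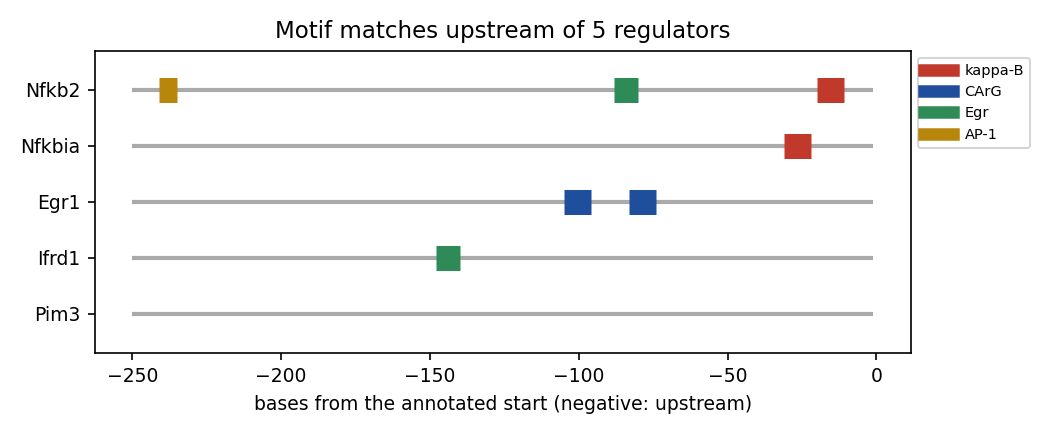
Positions of the motif matches (coloured boxes) in the 250 bases before the annotated start of 5 regulators, as bases from the start. Kappa-B matches lie within 31 bases of the start in Nfkb2 and Nfkbia, Egr1 holds 2 CArG matches, and the line of Pim3 is empty.

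Of the 6 genes, 5 had a higher mean in the ligated pool and Pim3 a lower one. Nfkb2 was 1.78-fold higher, Ifrd1 1.50-fold, Myc 1.48-fold, Egr1 1.35-fold and Nfkbia 1.25-fold higher, and Pim3 was 1.28-fold lower, if the logarithms are base 2. Nfkb2, Nfkbia, Myc and Ifrd1 were above 0 on all 4 arrays, whereas 5.53% of the 958 genes were. Nfkb2 and Ifrd1 reached a mean of 1.5-fold, as did 1.25% of all genes. These counts follow from how the genes were picked and support nothing further.

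**Figure D2:**
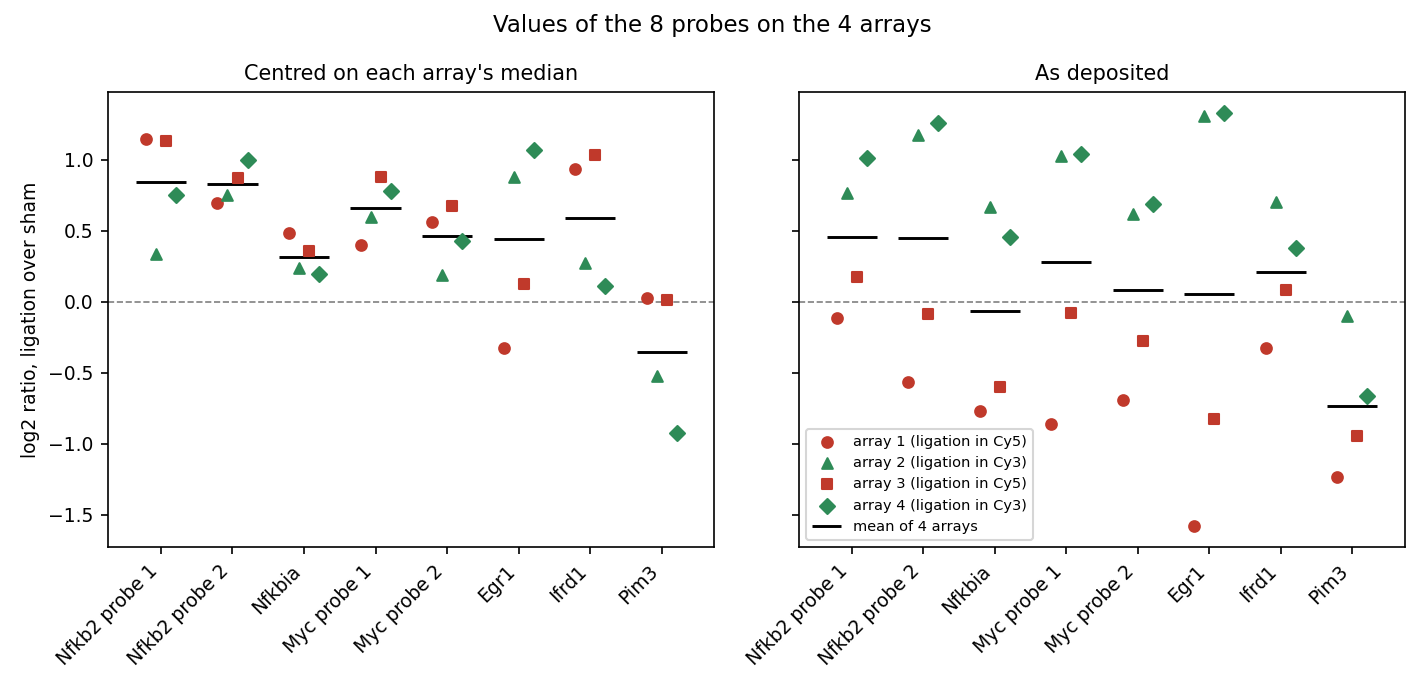
Log2 ratio of each of the 8 probes on the 4 arrays, centred on the array median (left) and as deposited (right), with the dye of the ligated pool in colour and the mean as a bar. After centring, all probes but those of Egr1 and Pim3 lie above 0 on every array, as do 5.53% of the 958 named genes. The dyes overlap for the second probe of Nfkb2 and the first of Myc. They do not overlap for the other probes shown. The share of such probes over the whole array was not counted, so the split cannot be read as special to these genes. Over all probes, arrays of the same dye orientation correlated at r = 0.93 and 0.94, and those of opposite orientation at r = -0.45 to -0.28. Of the probes shown without overlap, Egr1 is higher with ligation in Cy3 and the others with ligation in Cy5. As deposited, the points of the ligated pool in Cy3 lie above those in Cy5 for every probe.

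Nfkb2 was the highest of the group, and ranked 6 from the top of the 958 genes. Its first probe read 1.14 and 1.13 on arrays 1 and 3 (ligation in Cy5) and 0.34 and 0.75 on arrays 2 and 4 (ligation in Cy3). The second probe read 0.70 and 0.87 on arrays 1 and 3, and 0.75 and 1.00 on arrays 2 and 4. All 8 values lay above 0, and the first probe was higher with ligation in Cy5, while the second was slightly lower with it. The probe means were 0.84 ± 0.38 and 0.83 ± 0.13 (SD, n = 4 arrays), 0.013 apart, against a median gap of 0.098 over the 261 genes with 2 probes. Averaged over both probes the mean was 0.83 ± 0.08 (SE of the fit, 4 arrays).

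As deposited, the first probe of Nfkb2 read -0.11, 0.76, 0.18 and 1.01 on arrays 1 to 4. The second read -0.56, 1.17, -0.088 and 1.26. The gene's mean without centring was 0.45, still the highest of the 6, although 3 of the 4 values with ligation in Cy5 were below 0. Its mean was 0.13 with the table read as Cy5 over Cy3, with the probes at 0.30 and -0.045.

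Nfkbia, whose product holds NF-kappa-B in the cytoplasm, had 1 probe and a smaller ratio. It read 0.48 and 0.35 on arrays 1 and 3, and 0.24 and 0.19 on arrays 2 and 4. The values with ligation in Cy5 were the higher, without overlap, but all lay close together, with an SD of 0.13 over the 4 arrays and a mean of 0.32 ± 0.07 (SE of the fit), ranking 72 of 958. As deposited it read -0.77, 0.67, -0.60 and 0.45 on arrays 1 to 4, with a mean of -0.064, so its direction depended on the zero point. The Cy5 over Cy3 reading gave 0.10.

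Myc, a transcription factor that drives growth and ribosome production, was higher by both of its probes. The first read 0.40 and 0.88 on arrays 1 and 3, and 0.60 and 0.78 on arrays 2 and 4. The second read 0.56 and 0.68 on arrays 1 and 3, and 0.19 and 0.43 on arrays 2 and 4. Every value was above 0, and the dyes overlapped for the first probe but not for the second. The probe means of 0.66 ± 0.21 and 0.46 ± 0.21 (SD, n = 4 arrays) were 0.20 apart. That was wider than the median gap of 0.098 over the 261 genes with 2 probes. The gene averaged 0.56 ± 0.08 (SE), ranking 14 of 958.

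As deposited, the first probe of Myc read -0.86, 1.02, -0.079 and 1.04, and the second -0.69, 0.62, -0.28 and 0.69. Both probes were below 0 with ligation in Cy5 and above it with ligation in Cy3, and the gene's mean was 0.18. Under the Cy5 over Cy3 reading the mean was 0.065, the nearest to 0 among the 6 genes.

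Egr1, a zinc-finger factor that growth factors and stress induce within minutes to hours, differed between the dye orientations. Its single probe read -0.32 and 0.13 on arrays 1 and 3, and 0.88 and 1.07 on arrays 2 and 4. The arrays with the ligated pool in Cy3 were both high and those with it in Cy5 lay on either side of 0, with no overlap. The mean was 0.44 ± 0.09 (SE), but the plain SD over the 4 arrays was 0.65, the widest of the 6 genes, and the rank was 33 of 958. As deposited the readings were -1.58, 1.30, -0.83 and 1.33, with a mean of 0.056. Read as Cy5 over Cy3 the mean was -0.54, so its direction turned with the reading of the table, and quantile normalization gave 0.67.

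Ifrd1, a transcriptional coregulator induced early by growth stimuli, showed the opposite dye pattern. It read 0.93 and 1.03 on arrays 1 and 3, and 0.27 and 0.11 on arrays 2 and 4. All values were above 0, but those with ligation in Cy5 averaged 0.98 and those with it in Cy3 averaged 0.19. The mean was 0.59 ± 0.07 (SE), ranking 12 of 958. As deposited the readings were -0.32, 0.70, 0.079 and 0.37, with a mean of 0.21. The mean was 0.40 when the table was read as Cy5 over Cy3, the highest of the 6 genes under that reading.

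Pim3, a serine/threonine kinase that promotes cell survival, was the lower member. Its probe read 0.026 and 0.011 on arrays 1 and 3, and -0.53 and -0.93 on arrays 2 and 4. The values with ligation in Cy5 were next to 0, so the whole of the lower mean of -0.35 ± 0.08 (SE) came from the arrays with ligation in Cy3. It ranked 90 from the bottom of the 958 genes. As deposited it read -1.23, -0.100, -0.94 and -0.67, below 0 on each array, with a mean of -0.74. The Cy5 over Cy3 reading put it at 0.37, again with the direction turned.

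The part of a ratio that follows the dye is given by the dye term of the fit, which is the mean of the arrays with ligation in Cy5 minus the mean of all 4 arrays. Its size exceeded the ligation term in 749 of the 958 genes (78.2%), and in 2 of the 6 regulators. With the table read as Cy5 over Cy3 the terms change places, and the dye term would then be the larger in 209 genes and in 4 of the 6 regulators. Egr1 had a dye term of -0.54 and Pim3 one of 0.37, each larger than the gene's own mean. That of Ifrd1 was 0.40, while Nfkb2, Nfkbia and Myc had small ones, at 0.13, 0.10 and 0.065, against a median size of 0.40 over all genes.

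Genes of like dye term (within 0.1, a width set after seeing the data) show how each regulator stood among probes of the same dye behaviour. Egr1 was higher than all 129 such genes, which ran from -0.19 for Olr59 to 0.14 for Pcna. Nfkb2 was higher than all 119 of its own, the next being Alpl at 0.75. Of 124 genes like Myc 1 was higher, of 112 like Ifrd1 2 were, and of 116 like Nfkbia 8 were. For Pim3, 11 of 108 such genes were lower still. With the table read as Cy5 over Cy3 instead, Nfkb2 ranked 459, Nfkbia 478, Myc 510, Ifrd1 303 and Pim3 321 from the top of the 958 genes, and Egr1 ranked 89 from the bottom. Egr1 was then lower than all 45 genes whose ligation-over-sham mean lay within 0.1 of its own. These are ranks of picked genes and carry no test.

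**Figure D3:**
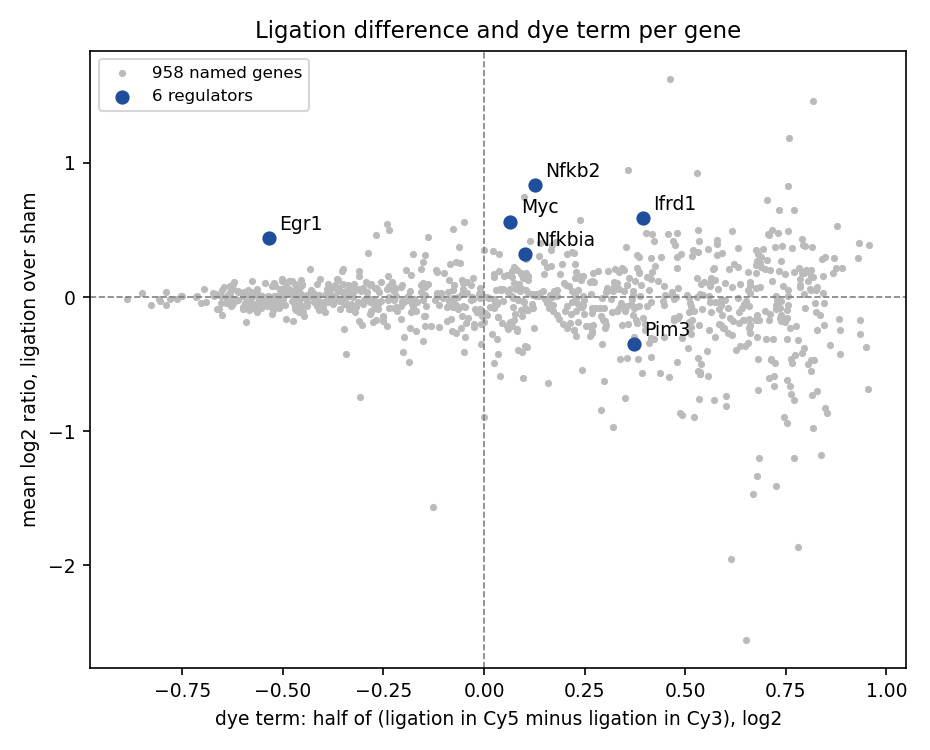
Mean log2 ratio (vertical) against the dye term (horizontal) for the 958 named genes (grey) and the 6 regulators (blue). Egr1 lies at -0.54 on the dye axis, above every grey point of like dye term, whereas Nfkb2, Nfkbia and Myc lie near a dye term of 0. The axes change places if the table is read as Cy5 over Cy3.

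The pattern most like each regulator was sought as the smallest Euclidean distance over the 4 centred array values, which share pools and dyes. Nearest to Nfkb2 were Alpl, the tissue-nonspecific alkaline phosphatase (0.31), and the annexin Anxa5 (0.53). Nfkbia had the fatty acid-binding protein Fabp3 (0.22) and the thymosin Tmsb10 (0.23) nearest. For Myc these were the retinal dehydrogenase Aldh1a1 (0.24) and the MAP kinase phosphatase Dusp5 (0.37), itself a growth-factor-induced gene.

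Egr1 lay farther from any other gene than the other regulators did, except with centring per print block, where its nearest gene was at 0.30 and that of Nfkb2 at 0.42. Its nearest genes were the plasminogen activator Plat (0.58) and the Cdk-binding protein Cks2 (0.58), which averaged 0.33 and 0.21. Ifrd1 lay nearest to the dynein light chain Dynll1 (0.28) and the kinase Mapk6 (0.32). Pim3 lay nearest to the growth factor receptor Egfr (0.22) and the dynein light chain Dynll2 (0.27). Among the 6 themselves, Nfkb2 and Myc were closest (0.58) and Nfkb2 and Pim3 farthest apart (2.48). The neighbours depended on the centring, and of these 12 genes 8 were still among the 2 nearest after quantile normalization and 4 with centring per print block. Quantile normalization put Plat at 1.02 and Cks2 at 1.06 from Egr1, and Alpl at 0.51 from Nfkb2.

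Other genes of these pathways were taken from 7 lists of NF-kappa-B, immediate-early, Myc, Pim and MAP kinase genes, of which 45 of 154 had a named probe. At a limma Benjamini-Hochberg adjusted p under 0.05, 5 of the 45 were higher in the ligated pool (11.1%) and 5 were lower (11.1%), while over all 958 genes 11.7% were higher and 15.4% lower. The remaining 35 did not pass. The listed genes had a median of -0.0024, against -0.013 over all genes. With the table as deposited 1 was higher and 37 lower, and read as Cy5 over Cy3 26 were higher and 8 lower. With each array centred on the probes outside the control positions, a choice made after seeing the data, 9 were higher and 4 lower. The 5 lower calls became 3 without array 2 and 2 without array 3.

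Within the NF-kappa-B and I-kappa-B family, Nfkb1, the paralog of Nfkb2, was the 1 of 8 listed genes with a named probe. It read 0.43 and 0.62 on arrays 1 and 3, and -0.13 and -0.17 on arrays 2 and 4. Its mean of 0.19 ± 0.07 (SE) did not pass (limma adjusted p = 0.080), but passed without array 1 (0.24, adjusted p = 0.0497), with centring per print block (0.29, adjusted p = 0.0141) and outside the control positions (0.23, adjusted p = 0.0354). Without centring it was at -0.19, and read as Cy5 over Cy3 at 0.34 (adjusted p = 0.00104). None of the 3 measured receptors and binding proteins upstream of NF-kappa-B passed, with the interleukin-1 receptor Il1r1 at 0.19, Cd40 at 0.15 and the endotoxin-binding protein Lbp at -0.033.

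Of 9 measured textbook targets of NF-kappa-B, 1 was higher, 2 were lower and 6 did not pass. The cytokine Tnf, also an activator of the pathway, read -0.051 and -0.20 on arrays 1 and 3, and -0.86 and -1.14 on arrays 2 and 4. It was lower on every array, with a mean of -0.57 ± 0.08 (SE, limma adjusted p = 0.000118). The chemokine Ccl5 was lower at -0.33 (adjusted p = 0.00409), but not without array 2 (-0.28, adjusted p = 0.0574). Averaged over its 2 probes, Ccl5 read 0.073 and 0.012 on arrays 1 and 3, and -0.80 and -0.61 on arrays 2 and 4. Its lower mean thus came from the arrays with ligation in Cy3 alone. Sod2, the mitochondrial superoxide dismutase, was higher at 0.37 (adjusted p = 0.00529), but its 2 probes disagreed, with means of 0.80 and -0.059. Averaged over both, it read 1.36 and 1.01 on arrays 1 and 3, but -0.61 and -0.27 on arrays 2 and 4. It did not pass once array 1 was left out (0.29, adjusted p = 0.0614), nor with array 4 left out (0.29, adjusted p = 0.0569), and stood at -0.010 without centring. Read as Cy5 over Cy3, Tnf was at 0.44, Ccl5 at 0.37 and Sod2 at 0.81. The adhesion molecules Icam1 (-0.17) and Vcam1 (-0.064) and the interleukins Il1a (0.091) and Il1b (-0.036) did not pass.

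Of 8 measured immediate-early regulators, Fosl2, an AP-1 subunit, was lower at -0.20 ± 0.07 (SE, limma adjusted p = 0.0491), and 7 did not pass. Averaged over its 2 probes, its values were alike on all arrays, at -0.22 and -0.24 on arrays 1 and 3, and -0.16 and -0.20 on arrays 2 and 4. The probes themselves differed, with means of -0.32 and -0.086. The call was lost without any 1 of the arrays (adjusted p = 0.0745 to 0.267, means -0.21 to -0.19), and read as Cy5 over Cy3 it was at -0.024 (adjusted p = 0.762). The AP-1 subunit Fos was at -0.073, the phosphatases Dusp1 and Dusp6 at -0.16 and 0.017, and the matricellular gene Ccn2 at 0.19 (adjusted p = 0.0644).

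Among partners and textbook targets of Myc, 2 of 7 measured genes were higher and 5 did not pass. All 7 were targets, and no listed partner of Myc had a named probe. The nucleolar protein Npm1 read 1.58 and 1.28 on arrays 1 and 3, and -0.017 and 0.062 on arrays 2 and 4. Its mean was 0.73 ± 0.08 (SE, limma adjusted p = 1.44e-05), carried by the arrays with ligation in Cy5. The glycolytic enzyme Eno1 was at 0.53 ± 0.08 (adjusted p = 0.000275), and without centring at 0.15 (adjusted p = 0.132). Eno1 read 1.59 and 1.21 on arrays 1 and 3, but -0.37 and -0.33 on arrays 2 and 4. Its higher mean thus came from the arrays with ligation in Cy5 alone. The ornithine decarboxylase Odc1 (0.056) and Ldha (-0.25) did not pass. The Cy5 over Cy3 reading gave 0.70 for Npm1 and 0.88 for Eno1.

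In the list of Pim kinases and the JAK-STAT pathway, through which cytokines induce Pim genes, 1 of 8 measured genes was higher and 1 lower. No Pim kinase was among the 8. Stat5b, a transducer of growth hormone, was at -0.35 (limma adjusted p = 0.0070), but did not pass when array 3 (-0.27, adjusted p = 0.0736) or else array 4 was left out (-0.27, adjusted p = 0.0743). Stat5b read 0.11 and -0.23 on arrays 1 and 3, and -0.49 and -0.80 on arrays 2 and 4. The growth hormone receptor Ghr was at 0.32 (adjusted p = 0.0296), but did not pass when array 2 (0.22, adjusted p = 0.188) or else array 3 was left out (0.18, adjusted p = 0.263). Ghr also did not pass under quantile normalization (0.38, adjusted p = 0.052) or centring per print block (0.24, adjusted p = 0.0645). Nor did it with centring on the upper quartile of the dye term (0.28, adjusted p = 0.262). Ghr read -0.14 and 0.42 on arrays 1 and 3, and 0.70 and 0.29 on arrays 2 and 4. Stat3 was at -0.027 and the cytokine inhibitor Socs1 at -0.097, with its 8 probes between -0.38 and 0.17, neither past the test. Under the other reading, Cy5 over Cy3, Stat5b was at 0.29 and Ghr at -0.18.

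In the Ras-MAP kinase list, 1 of 9 measured genes was higher, 1 was lower and 7 did not pass. Mapk6, an atypical MAP kinase, was higher at 0.47 ± 0.07 (SE, limma adjusted p = 0.000303), and at 0.088 without centring (adjusted p = 0.398). Mapk6 read 0.83 and 0.94 on arrays 1 and 3, but -0.013 and 0.12 on arrays 2 and 4, so its mean was carried by the arrays with ligation in Cy5. Egfr was lower at -0.30 ± 0.08 (adjusted p = 0.00947), but did not pass when array 3 (-0.25, adjusted p = 0.056) or else array 4 was left out (-0.25, adjusted p = 0.119). The 2 probes of Egfr had means of -0.45 and -0.15. Averaged over both, Egfr read 0.16 and -0.012 on arrays 1 and 3, but -0.57 and -0.77 on arrays 2 and 4. Its lower mean was thus carried by the arrays with ligation in Cy3. Read as Cy5 over Cy3, Mapk6 was at 0.42 and Egfr at 0.37.

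**Figure D4:**
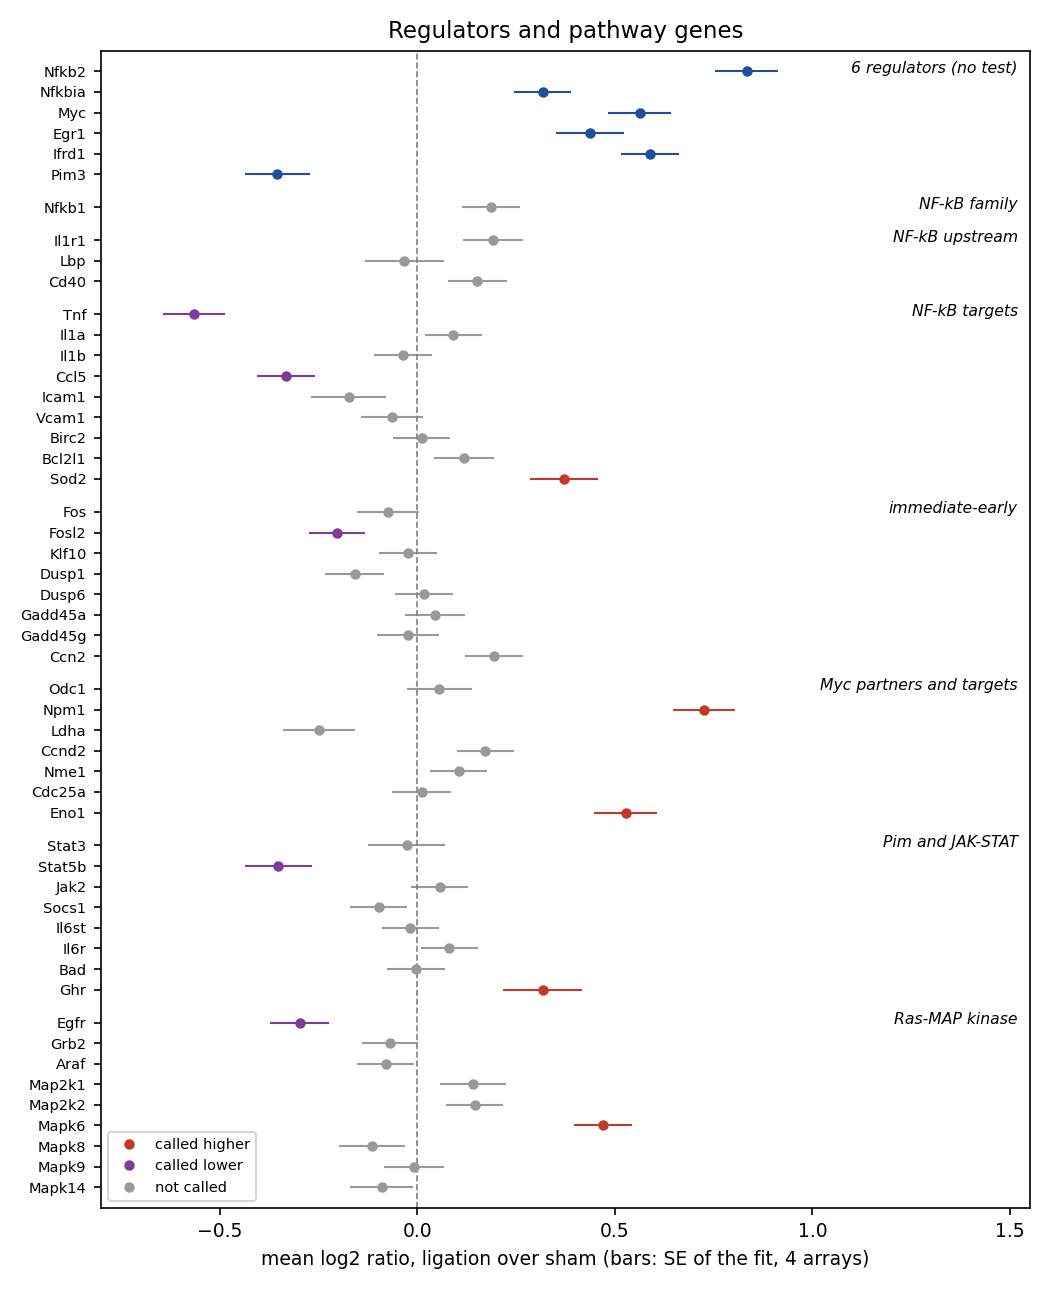
Mean log2 ratio with the SE of the fit over 4 arrays for the 6 regulators (blue, no test) and the 45 measured pathway genes, coloured by the limma call. Of the 45 genes, 5 lie on the right as called higher and 5 on the left as called lower, with 35 in grey.

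Markers of the cell types that the tissue could hold were few. Of 12 hepatocyte markers 6 had a named probe, and 4 were higher (Ttr, Tf, Apoa1 and Serpina1, from 0.20 to 0.38) and 1 lower (Fah, -0.68, limma adjusted p = 8.28e-05). Pck1 was below 0 on every array, at -0.22, but did not pass (limma adjusted p = 0.0709). Ttr, Tf and Apoa1 were below 0 on both arrays with ligation in Cy3 (means -0.43, -0.26 and -0.42). Fah was above 0 on both arrays with ligation in Cy5 (mean 0.27). The leukocyte marker Cd53 was lower at -0.27 (adjusted p = 0.0179), the 1 of 12 measured. Cd53 read 0.13 and -0.12 on arrays 1 and 3, but -0.52 and -0.55 on arrays 2 and 4, so its lower mean came from the arrays with ligation in Cy3. The endothelial marker Kdr was lower at -0.33 (adjusted p = 0.0173) while Tek and Cdh5 did not pass, and the fibroblast marker Col1a1 was lower at -0.23 (adjusted p = 0.0296) while Vim did not pass. The duct marker Spp1 was at 0.14 (adjusted p = 0.212). The calls of Ttr (0.20, adjusted p = 0.0841) and Kdr (-0.26, adjusted p = 0.149) were lost without array 1, and those of Cd53 and Col1a1 without array 3 (-0.20, adjusted p = 0.0825, and -0.19, adjusted p = 0.102). Serpina1 lost its call without any 1 array (0.20 to 0.21). Its 2 probes had means of 0.032 and 0.38, and the 2 probes of Col1a1 had means of -0.42 and -0.051. Without array 2, Ttr (adjusted p = 0.089), Kdr (-0.20, adjusted p = 0.242), Cd53 (adjusted p = 0.0726) and Col1a1 (-0.24, adjusted p = 0.12) lost theirs, and without array 4 Ttr (adjusted p = 0.115), Cd53 (-0.26, adjusted p = 0.0966) and Col1a1 (-0.22, adjusted p = 0.177) did. Without centring, the 4 higher hepatocyte markers lay below 0 (-0.18 to -0.0039). Under the Cy5 over Cy3 reading, Fah was higher at 0.95 (adjusted p = 4.96e-06) and Cd53 at 0.27 (adjusted p = 0.00542), and Serpina1 was lower at -0.19 (adjusted p = 0.0234). Ttr was then at 0.69, Tf at 0.63 and Apoa1 at 0.80, all still higher, while Kdr (-0.15, adjusted p = 0.15) and Col1a1 (-0.057, adjusted p = 0.483) did not pass. The part of cell mixture in the regulators' values was not tested.

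**Figure D5:**
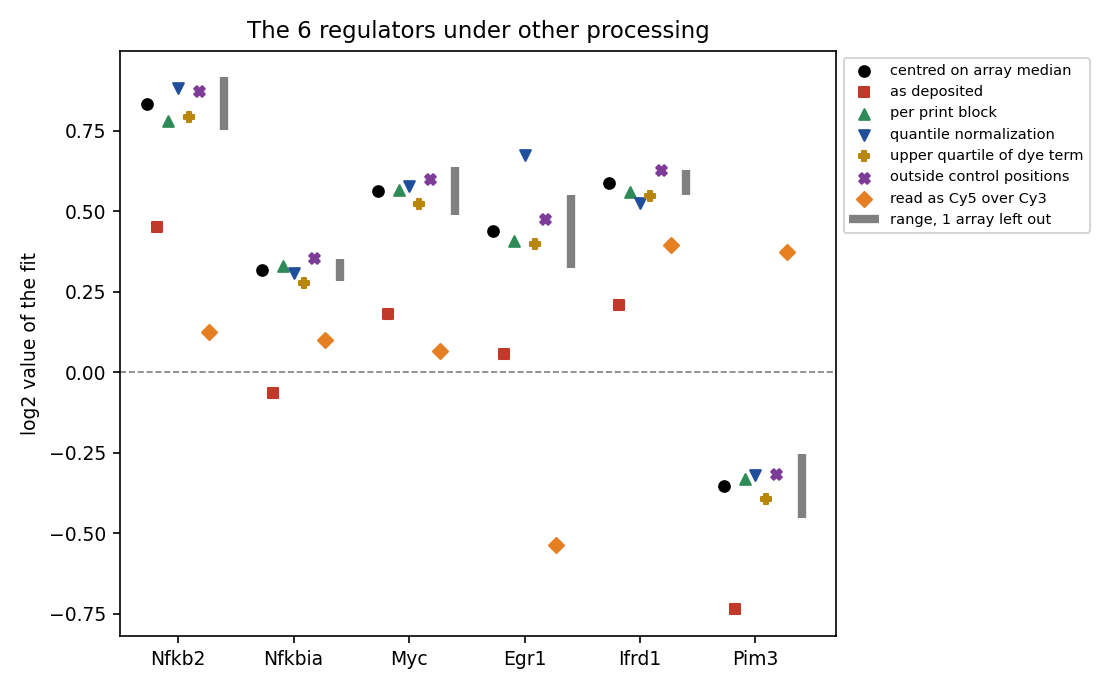
Mean log2 value of each regulator under 7 ways of centring or reading the table (points) and the range over fits that leave out 1 array (grey bars). Values with some form of centring stay together apart from Egr1 under quantile normalization, those as deposited lie lower for every gene, and those read as Cy5 over Cy3 turn sign for Egr1 and Pim3.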

How the data were processed

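The deposited values are log ratios, 1 per probe and array, as 2 dyes per array in the labels and values on both sides of 0 make likely. The deposited values were taken as log2, an assumption. How the slides were scanned, corrected and normalized, the logarithm's base and the numerator are not stated in the labels. Probes were named from the platform's annotation table. Of 1936 probes 1432 had 1 symbol, 19 several and 485 none, and the symbols of 1429 probes matched RefSeq (GRCr8) by gene number. The table read as 16 print blocks of 121 spots. Control spots were inferred as the 18 positions per block without a name anywhere (288 spots) and left out of the fit.

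Each array was centred on its median, and probes of 1 symbol were averaged. The ligation term and a dye term were fitted with limma 3.58.1 (R 4.3.3) over 958 genes and 216 other probes, with Benjamini-Hochberg adjustment over all 1174 features and calls at 0.05. The fit was tested on simulated data. Named genes were all 6 regulators, their 2 nearest genes, up to 4 called genes per list and direction, and measured paralogs. Some pathway genes that did not pass, Ccn2, Fos, Dusp1, Dusp6, Icam1, Vcam1, Il1a, Il1b, Il1r1, Cd40, Lbp, Odc1, Ldha, Stat3, Socs1, and the marker genes Pck1, Tek, Cdh5, Vim and Spp1, were named beyond that rule, as were the highest and lowest genes of like dye term. The regulators and lists were chosen with earlier results of these data known. Alternatives were other centring, the other reading of the ratio, probe medians, no dye term, a robust prior, keeping the control positions and leaving out each array. The number of arrays limits the precision.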

Additional observations from a re-analysis of the deposited data

Results flagged for a closer look

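Ccn2, a matricellular early response gene, read 0.31 on array 3, far from its other values of 0.16, 0.15 and 0.16 on arrays 1, 2 and 4. Its gap to the nearest array was 0.92 of the whole range (above Dixon's critical value for 4 arrays). This was the single flag among 72 sets of 4 values examined. Dixon's test flags about 5% of sets by chance when the 4 values are independent draws from 1 normal distribution. The arrays fall into 2 dye orientations, so that rate need not hold here, and the count of flags says nothing about data quality.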

How the results depend on the processing

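Leaving out 1 array at a time, the means ran from 0.75 to 0.92 for Nfkb2, 0.28 to 0.35 for Nfkbia, 0.49 to 0.64 for Myc, 0.33 to 0.55 for Egr1, 0.55 to 0.63 for Ifrd1 and -0.45 to -0.25 for Pim3. Pathway genes called higher ran from 4 to 5 and lower from 2 to 5, and over all genes from 74 to 117 higher and 103 to 151 lower. Without centring, Nfkb2 was at 0.45, Myc at 0.18, Egr1 at 0.056, Ifrd1 at 0.21 and Pim3 at -0.74, Nfkbia turned to -0.064, and limma called 11 genes higher and 791 lower (1 and 37 in the pathway lists), by construction, since every gene moved down. Sod2 (-0.010), Ghr (-0.064), Ttr (-0.13), Tf (-0.014), Apoa1 (-0.0039), Serpina1 (-0.18) and Nfkb1 (-0.19) turned with it. Read as Cy5 over Cy3, Nfkb2 was at 0.13, Nfkbia at 0.10, Myc at 0.065 and Ifrd1 at 0.40. Egr1 turned to -0.54, Pim3 to 0.37, Tnf to 0.44, Ccl5 to 0.37, Stat5b to 0.29, Ghr to -0.18, Egfr to 0.37, Serpina1 to -0.19, Fah to 0.95 and Cd53 to 0.27. limma then called 433 genes higher and 314 lower, and 26 and 8 in the pathway lists. Without the dye term no gene was called by limma, 0 higher and 0 lower, in the lists too, with 52 of 958 at an unadjusted p under 0.05 (346 with the term), since differences between orientations then count as spread. Centring on the upper quartile of the dye term gave 60 higher and 120 lower over all genes, against 112 and 148, and the added centring outside the control positions gave 143 and 124, with 9 pathway genes higher. Quantile normalization, print-block centring and probe medians left the direction of each of the 6 regulators as it was. The distances to the nearest genes, tried under other centring after the data were seen, moved most for Egr1 (Plat 1.02, Cks2 1.06) and Nfkb2 (Alpl 0.51) under quantile normalization. With centring per print block Anxa5 lay 0.78 from Nfkb2, Fabp3 0.29 from Nfkbia and Mapk6 0.50 from Ifrd1. Each ratio already sets both pools against each other on its array, so the fit was itself a paired comparison and no further block was left to fit. Signal over background is unknown, since the files hold ratios alone.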
